A study of Mus musculus with 9 samples.

Results

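The dystrophin glycoprotein complex is described here by the transcripts of 8 genes, *Dmd*, *Utrn*, *Dag1*, *Sgca*, *Sgcb*, *Sgcd*, *Sspn* and *Dtna*, chosen by name for the protein each encodes. The choice was made with earlier results of these data known, so shares of these genes set beside all genes are a description. All 8 symbols were matched to an Ensembl identifier in the count files, which list 46078 genes for the cultured cells and 38293 for muscle. RNA was sequenced from 3 GAS samples, the gastrocnemius muscle of female C57BL/6 mice aged 8 to 12 weeks, and from cultures of primary mouse myoblasts (MB) and myotubes (MT) of the same strain, with 2 libraries per group. MT had been kept in differentiation medium for 3 days, lactate-treated MB (2 libraries) had received sodium-L-lactate at 10 mM in PBS, and the control cells PBS alone. The labels call the libraries of a group biological replicates, without naming animals or cultures, so that the p-values measure the spread between these libraries only. GAS is whole muscle with its vessels, nerves and connective tissue, whereas MB and MT are cells grown without nerve or load. In these bulk samples, fewer cells of a type and less RNA per cell cannot be told apart.

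Dystrophin, encoded by *Dmd*, links the actin cytoskeleton under the muscle membrane to dystroglycan, which spans the membrane and binds laminin in the basement membrane. The sarcoglycans and sarcospan surround dystroglycan in the membrane, and dystrobrevin and the syntrophins bind dystrophin on the inner side. Utrophin is the close relative of dystrophin, found along the membrane of immature muscle and at the neuromuscular junction of adult muscle. Loss of dystrophin causes Duchenne muscular dystrophy, and loss of a sarcoglycan causes a limb-girdle muscular dystrophy.

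On mm10, *Dmd* (ENSMUSG00000045103) spans 2257 kb of the plus strand of the X chromosome, from 82948870 to 85206141, with 14 annotated transcripts. *Utrn* lies on chromosome 10 from 12382188 to 12869365, *Dag1* on chromosome 9 from 108204634 to 108263958, *Sgca* on chromosome 11 from 94962791 to 94976327 and *Sgcb* on chromosome 5 from 73632749 to 73647790, all on the minus strand. *Sgcd* shares chromosome 11 and the minus strand with *Sgca*, from 46896253 to 47988969, and *Sspn* is on the plus strand of chromosome 6 from 145931641 to 145965223. Exons of *Sspn* and *Dtna* overlap an antisense gene over 69 and 90 bases, or 1.38% and 0.53% of their exonic length. The use of strand in counting is not given in the sources used here.

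The starts of *Dmd* and *Sgca* are shown because the former gave the largest change of the 8 genes between MB and MT and the latter the highest level in GAS. RefSeq (GRCm38.p6) lists a start of *Dmd* at the 5′ end of the gene and another 2099425 bases further on, from which only a short product can be read. Capitals mark E-boxes (CANNTG, the core letters bound by MyoD and related factors, on both strands) and matches to the CArG box of serum response factor and to the MEF2 motif. The sequences are the 250 bases before each start, at chrX:82948620-82948869 and chrX:85048045-85048294 on the plus strand and at chr11:94976328-94976577 on the minus strand.
Dmd 5′ start: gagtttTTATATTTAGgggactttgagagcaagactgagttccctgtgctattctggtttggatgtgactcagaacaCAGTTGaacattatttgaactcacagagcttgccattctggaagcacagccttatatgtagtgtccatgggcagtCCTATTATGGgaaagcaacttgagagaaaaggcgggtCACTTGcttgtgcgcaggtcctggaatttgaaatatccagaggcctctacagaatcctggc
Dmd inner start: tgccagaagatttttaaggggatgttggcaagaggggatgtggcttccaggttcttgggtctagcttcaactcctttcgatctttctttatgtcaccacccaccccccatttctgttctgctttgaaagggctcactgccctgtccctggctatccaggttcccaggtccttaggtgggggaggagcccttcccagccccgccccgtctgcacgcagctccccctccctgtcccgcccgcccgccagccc
Sgca start: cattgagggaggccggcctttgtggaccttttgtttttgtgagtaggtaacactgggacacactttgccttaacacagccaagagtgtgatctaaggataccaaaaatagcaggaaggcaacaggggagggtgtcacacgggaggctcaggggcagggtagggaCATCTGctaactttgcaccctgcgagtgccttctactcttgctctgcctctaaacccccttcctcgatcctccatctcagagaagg
The 5′ window of *Dmd* holds a CArG box (CCTATTATGG) that begins 98 bases before the start, a MEF2 motif at 244 bases and E-boxes at 173 and 61 bases, none of which overlap. Of 32817 RefSeq promoter windows of the same length, 1.47% hold a CArG box, 2.92% a MEF2 motif and 66.2% an E-box, so that E-boxes are common in such windows. The inner window of *Dmd* holds none of these letters, and has 7 CG dinucleotides against 2 in the 5′ window and a median of 6 over all windows. The window of *Sgca* has a single E-box, 86 bases before the start. Windows were read for 7 members, with *Dtna* left out. Among their 10 windows, the 5′ window of *Dmd* is the 1 with a CArG box and the 1 with a MEF2 motif. Of the 10, 7 have CANNTG, but the windows of *Dag1* overlap and hold the same E-box. None of the 7 members has CAGCTG, which 13.0% of all windows hold. A match is a description of the letters and not a measured binding site.

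The libraries held 19307793 to 19941574 counts for GAS, 7856301 and 10839516 for MT, 7770793 and 8974146 for MB, and 5198247 and 7415628 for lactate-treated MB. MT replicate 1 stood apart, with 28599 genes counted against 15548 to 17965 in the other cultured libraries. Among 3854 protein-coding genes counted in this library alone, the median was 3.23 counts per kb of exon and the 95th percentile 26.5. In the same library *Dmd* had 22.6 and *Sgcd* 21.4 counts per kb, below that percentile, and the other 6 members had between 57.2 and 934. Taking all 6577 protein-coding genes without a count in the other cultured libraries, counted here or not, the 95th percentile was 20.3. Both *Dmd* and *Sgcd* lay above that value, so their place against this background depended on the genes taken. In MT replicate 2, *Dmd* had 11.2 and *Sgcd* 7.75 counts per kb. The labels held for muscle markers, since *Myog*, *Ckm*, *Acta1*, *Tnnt3*, *Myh3* and *Myh4* summed to between 10859 and 11909 CPM in MT and between 79.2 and 179 in MB. *Pax7*, *Myf5* and *Myod1* summed to between 716 and 1319 CPM in MB and between 172 and 373 in MT. Some markers of other cells also moved with MT. Fibroblast markers (*Pdgfra*, *Dpt*, *Dcn*; 3 of 3 counted in MT, 2 of 3 in MB) summed to 109 and 446 CPM in MT and to at most 1.70 in MB, and smooth muscle and mural markers (*Myh11*, *Rgs5*, *Pdgfrb*; 3 of 3 in both) to 127 and 202 against at most 14.5. *Dcn*, the most abundant fibroblast marker in MT, had 5484 and 867 counts in MT and 0 and 2 in MB, and *Dpt* was at 0 in MB. *Pdgfrb*, the most abundant mural marker, had 1414 and 1650 counts in MT and 88 and 38 in MB, and made up most of that sum. *Rgs5* had 139 and 1 counts in MT against 22 and 35 in MB, so it was lower in MT replicate 2. *Myh11* had 40 and 3 counts in MT against 1 and 0 in MB. Endothelial, leukocyte, Schwann and adipocyte markers summed to at most 15.7 CPM in MT. In MT replicate 2, *Pecam1*, *Cdh5*, *Kdr*, *Ptprc*, *Adgre1* and the adipocyte markers *Adipoq*, *Plin1* and *Cidec* were at 0, and the counts of these in MT came from replicate 1. The part of all these markers in the results below was not tested.

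MT were compared with MB to follow expression from proliferating precursor to multinucleated myotube. The transcripts of dystrophin, α-sarcoglycan, δ-sarcoglycan, sarcospan, dystroglycan and α-dystrobrevin rose in MT, from 3.71-fold for *Dag1* to 28.6-fold for *Dmd*. Thus 6 of the 8 genes passed the thresholds as higher and 0 as lower, against 11.0% of all 12921 genes tested that were higher and 6.86% that were lower. *Sgcb* and *Utrn* had log2 fold changes of 1.38 and 1.26 and did not pass. Each of the 8 genes was higher in both MT libraries than in both MB libraries, as were 33.5% of all genes tested, and all 8 had a log2 fold change above 0, as did 52.3% of all. The median log2 fold change over the 8 genes was 2.26, against 0.07 over all genes tested. A gene passed when its adjusted p (edgeR, quasi-likelihood) was below 0.05 and its absolute log2 fold change above 0.5.

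**Figure D1:**
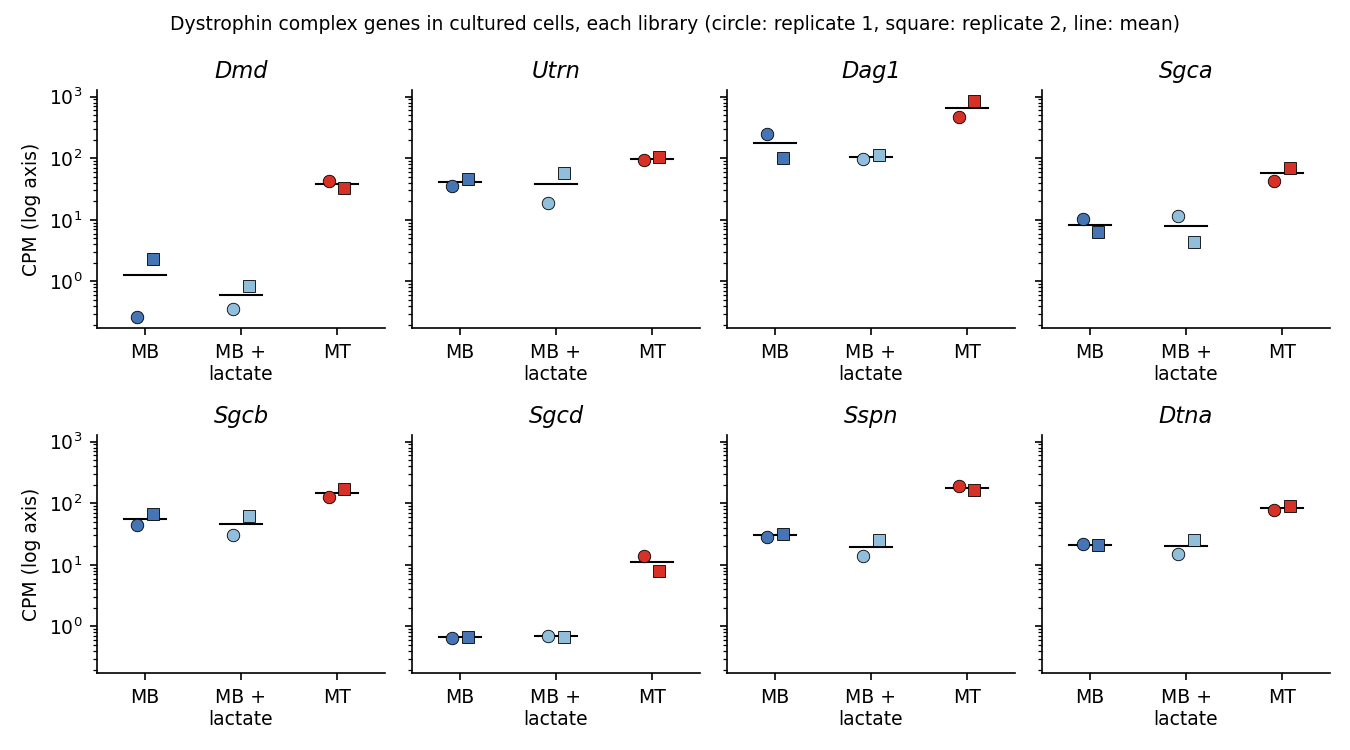
CPM (counts scaled to library size, log axis) of the 8 genes in each library of control MB, lactate-treated MB (MB + lactate) and MT, with circles for replicate 1, squares for replicate 2 and lines for group means. Every MT library lies above both MB libraries for each gene, whereas lactate-treated and control MB overlap for all genes but *Sspn*.

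*Dmd* was close to absent in MB, with 2 and 20 counts, and reached 538 and 267 counts in MT. In CPM, normalized for library composition, these were 0.261 and 2.28 in MB and 42.9 and 32.7 in MT. The MT libraries were thus near each other, whereas nearly all counts in MB came from replicate 2. The log2 fold change was 4.84 ± 0.82 (SE, adjusted p = 0.00344). It was 3.89 without MB replicate 1 and 7.02 without MB replicate 2, so its size rested on which MB library was kept, and it passed in both cases. Reads were counted per gene, so the full-length muscle product and the short products from inner starts were not separated.

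*Utrn*, the relative that was already present before differentiation, had 35.7 and 46.0 CPM in MB and 94.1 and 103 in MT. The groups did not overlap, and the log2 fold change of 1.26 ± 0.43 had an adjusted p of 0.0658. *Dmd* and *Utrn* therefore differed in their starting level: per kb of exon and within a library, *Utrn* was 28.0 and 190 times *Dmd* in MB and 3.05 and 4.38 times in MT. The MB value of 190 rested on 2 counts of *Dmd*, with a 95% counting interval (Clopper-Pearson) from 52.1 to 1576, and that of 28.0 had an interval from 17.9 to 46.4. The intervals in MT, from 2.76 to 3.39 and from 3.81 to 5.04, lay below both of these. In GAS the order was the other way, with *Utrn* at 0.251, 0.243 and 0.255 times *Dmd*. In lactate-treated MB the ratio was 73.7 and 92.9, on 2 and 5 counts of *Dmd*. These intervals cover counting error only.

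**Figure D2:**
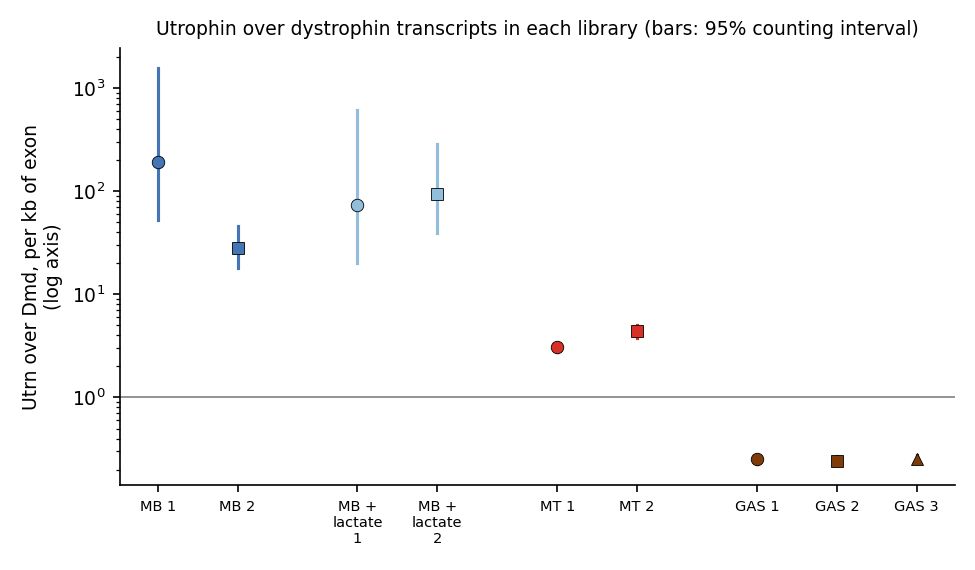
Ratio of *Utrn* to *Dmd* counts per kb of exon (log axis) in each of the 9 libraries, with bars for the 95% Clopper-Pearson counting interval and a line where both are equal. The ratio lies above 1 in all 6 cultured libraries, between 28.0 and 190 in control MB and between 3.05 and 4.38 in MT, and near 0.25 in the 3 GAS libraries, which were made with another protocol.

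*Dag1* encodes both subunits of dystroglycan, α outside the cell and β across the membrane. By group mean it was the most abundant of the 8 transcripts per kb in MB and in MT, at 27.5 ± 16.4 and 103 ± 40.6 RPKM (SD, n = 2). Its CPM was 249 and 101 in MB and 473 and 838 in MT, a log2 fold change of 1.89 ± 0.58 (adjusted p = 0.0473). The MB libraries differed more for *Dag1* than for *Utrn*, *Sgcb*, *Sspn* or *Dtna*. Its call was lost without MB replicate 2 (log2 fold change 1.33, adjusted p = 0.225) and without MT replicate 2 (1.25, adjusted p = 0.192).

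The sarcoglycans, which form a tetramer in the muscle membrane, started from unequal levels. *Sgca*, for α-sarcoglycan, which is largely restricted to striated muscle, went from 10.3 and 6.39 CPM in MB to 43.1 and 70.1 in MT (log2 fold change 2.75 ± 0.54, adjusted p = 0.00665). *Sgcd*, for δ-sarcoglycan, had 5 and 6 counts in MB and 177 and 64 in MT, or 0.653 and 0.684 CPM against 14.1 and 7.83. Its log2 fold change was 4.00 ± 0.82 (adjusted p = 0.00806), and it was 3.52 without MT replicate 1, still past the thresholds. *Sgcb*, for β-sarcoglycan, which many tissues express, was already at 44.0 and 68.0 CPM in MB and had 125 and 170 in MT. Its adjusted p was 0.0561, and leaving out a library gave 0.0353 without MB replicate 2, 0.349 without MB replicate 1, and 0.168 and 0.320 without MT replicates 1 and 2. Set against *Sgcb* within a library and per kb, *Sgca* was 0.548 and 0.219 in MB, 0.808 and 0.961 in MT and 2.23 to 2.55 in GAS.

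*Sspn*, for sarcospan, a tetraspan membrane protein that binds the sarcoglycans, had 27.8 and 32.2 CPM in MB and 188 and 167 in MT. Both pairs lay close together, and the log2 fold change was 2.55 ± 0.44 (adjusted p = 0.00349). *Dtna*, on the plus strand of chromosome 18 from 23415135 to 23659715, encodes α-dystrobrevin on the inner side of the membrane. It had 21.6 and 20.8 CPM in MB and 77.1 and 90.8 in MT, with a log2 fold change of 1.97 ± 0.44 (adjusted p = 0.0126). The *Dtna* groups were well apart, but its adjusted p was 0.0538 without MT replicate 1 and 0.0789 without MT replicate 2. Without MT replicate 1, the library that stood apart, 5 of the 8 genes passed as higher (*Dag1*, *Dmd*, *Sgca*, *Sgcd* and *Sspn*), against 7.34% of all genes.

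**Figure D3:**
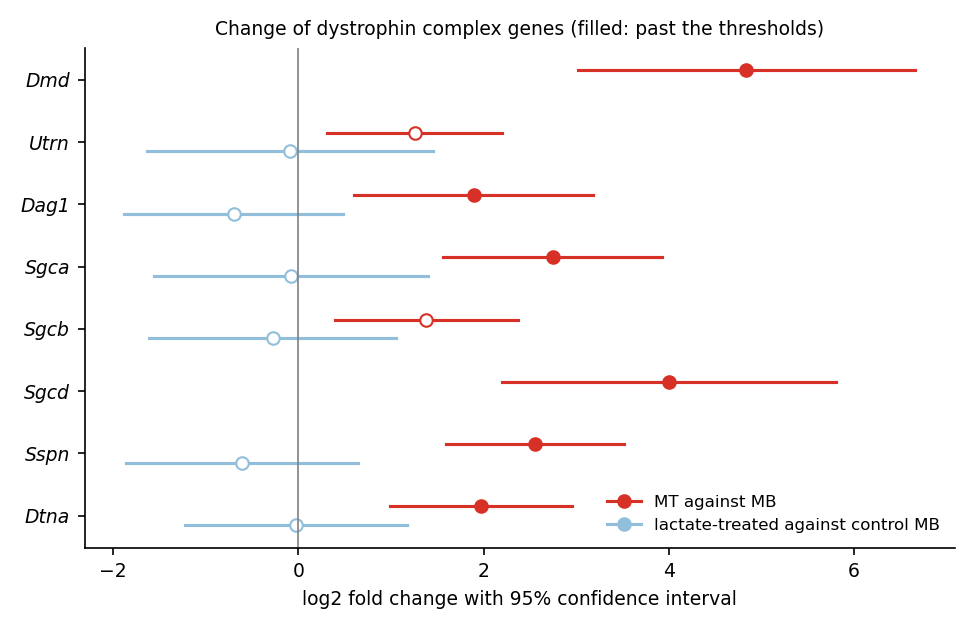
Log2 fold change (x axis) with its 95% confidence interval for MT against MB in red and lactate-treated against control MB in light blue, for each gene on the y axis, with filled points for genes past the thresholds. For MT, 6 of 8 points are filled and *Dmd* lies furthest right at 4.84. For lactate, every interval includes 0 and *Dmd* and *Sgcd* have no point because their counts were too low to be tested.

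Other genes of the complex were read from a list of 12, of which 8 could be tested. Among these, 4 rose in MT, with *Cav3* and *Sntb1* among them, and 1 fell, *Dtnb*, beside 11.0% and 6.86% of all genes tested. The median log2 fold change of the 8 was 1.81, against 0.07 over all genes. *Cav3*, for the caveolin of muscle, had 12 and 5 counts in MB and 1825 and 1709 in MT (log2 fold change 7.36 ± 0.66). *Sntb1*, for β1-syntrophin, which binds dystrophin and dystrobrevin, had a log2 fold change of 3.08 ± 0.58 (adjusted p = 0.00586). The paralog of α-dystrobrevin was lower in MT: *Dtnb* had 21.8 and 10.7 CPM in MB and 4.54 and 3.06 in MT (-2.10 ± 0.65, adjusted p = 0.0473). This call was near the threshold and was lost without MB replicate 1 (adjusted p = 0.322), MT replicate 1 (0.128) or MT replicate 2 (0.0952) and with DESeq2 (0.0539). Per kb, *Dtnb* was 1.78 and 0.911 times *Dtna* in MB, 0.104 and 0.0594 times in MT and 0.0095 to 0.0108 times in GAS. *Sgce*, for ε-sarcoglycan, which can stand in for α-sarcoglycan outside striated muscle, had a log2 fold change of 1.07 that did not pass (adjusted p = 0.138). Relative to *Sgca* it was 0.395 and 0.704 in MB, 0.250 and 0.105 in MT and 0.0065 to 0.0073 in GAS. *Nos1*, for neuronal nitric oxide synthase, which docks on the complex, had 0 counts in both MB libraries, 74 and 9 in MT, and 83.9 ± 8.56 CPM (SD, n = 3) in GAS. Against a limit of 3 counts per MB library, its mean in MT was at least 9.53-fold higher, with at least 16.1-fold in MT replicate 1 and 3.00-fold in MT replicate 2. In MT replicate 1, the library that stood apart, *Nos1* was at 0.529 RPKM, below *Dmd* at 1.80. How much of it was background of that library was not tested.

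α-Dystroglycan binds laminin through a sugar chain built by a set of glycosyltransferases. Of 18 genes of this pathway, 17 were tested and 0 passed in either direction, beside 11.0% higher and 6.86% lower of all genes tested. Their median log2 fold change was 0.24. At an unadjusted p below 0.05, 2 of the 17 differed, beside 32.5% of all genes tested, and edgeR's likelihood ratio test called 1. *Dpm1*, for a subunit of dolichol-phosphate mannose synthase, had a log2 fold change of 1.79 ± 0.78 (adjusted p = 0.141). DESeq2 called none of the 18. Of 9 matrix ligands, all tested, 3 were higher in MT and 0 lower, beside 11.0% and 6.86% of all genes tested. *Lama4*, for the α4 chain of laminin, had 0 counts in both MB libraries and 556 and 169 in MT, at least 88.5-fold higher by the mean, and at least 121- and 56.3-fold in replicates 1 and 2. *Lama1*, for the α1 chain, had 0 counts in MB and 46 and 105 in MT, at least 22.5-fold higher by the mean, and at least 9.99- and 35.0-fold in replicates 1 and 2. *Lamb2*, for the β2 chain, had a log2 fold change of 1.59 ± 0.48 (adjusted p = 0.0425). Its call was lost without MB replicate 2 (adjusted p = 0.178), MT replicate 1 (0.0709) or MT replicate 2 (0.293), so that 2 of the ligands were higher in those cases. *Lama2*, for the α2 chain of adult muscle, had a log2 fold change of 1.27 ± 0.48 that did not pass (adjusted p = 0.0947). Of 8 cytoskeletal and membrane partners, 7 were tested. Of these, 1 was higher and 1 lower, near the 11.0% and 6.86% of all genes tested. *Cavin4* of muscle caveolae rose (6.38 ± 0.61) and *Krt19*, a keratin, fell (-2.77 ± 0.72, adjusted p = 0.024). The call of *Krt19* was lost without MT replicate 2 (adjusted p = 0.0534), and that of *Cavin4* was kept with each library left out.

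Lactate-treated and control MB were compared to ask whether lactate alone moves myoblasts towards differentiation. *Dmd* and *Sgcd*, the members furthest apart between MB and MT, stayed at a few counts, with 2 and 5 for *Dmd* and 4 and 4 for *Sgcd* after lactate against 2 and 20, and 5 and 6, in control MB. Such counts fell below edgeR's filter, so neither gene was tested. Of the other 6 members, 0 passed a nominal p below 0.01 with an absolute log2 fold change above 0.5, and 0.0% of all 11804 genes tested did. At an unadjusted p below 0.05 there were 5 genes in all, or 0.0424%, and none of the 6. DESeq2 and edgeR's likelihood ratio test also called 0 of the members.

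The 6 estimates lay between -0.70 and -0.03 on the log2 scale, where 50.5% of all genes tested were below 0. Their intervals were wide in this fit of 2 libraries a group, which left out the replicate number. Moderate changes were therefore not detectable in it. For *Dag1* the difference was -0.70 with a 95% interval from -1.88 to 0.48, from 97.8 and 111 CPM after lactate against 249 and 101. For *Sspn* it was -0.61, from -1.86 to 0.64, and its values of 13.8 and 25.2 CPM after lactate were both below the control values of 27.8 and 32.2. Such an arrangement, both lactate-treated libraries below both controls, was found for 7.56% of all genes tested, and the opposite one for 3.47%. *Sgcb* had -0.28 (-1.61 to 1.05), *Utrn* -0.09 (-1.63 to 1.45), *Sgca* -0.08 (-1.56 to 1.40) and *Dtna* -0.03 (-1.23 to 1.17). For *Sspn*, *Dag1* and *Sgca* the upper bounds lay below the lower 95% bounds for MT against MB, of 1.59, 0.60 and 1.56. For *Sgcb* and *Dtna* the upper bounds lay below the MT estimate, but the intervals overlapped, with lower MT bounds of 0.39 and 0.99. For *Utrn* the upper bound of 1.45 was above its MT value of 1.26, so a change of that size was within its interval. The 2 replicate numbers did not go the same way for several genes: *Dag1* after lactate was 0.393 times control in replicate 1 and 1.10 times in replicate 2, and *Utrn* 0.526 and 1.23 times. No gene of the other lists passed either.

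In GAS, adult muscle in which the complex is assembled along the fiber, all 8 transcripts were well above detection, with at least 383 counts per library. Levels were compared per kb of exon (RPKM). *Sgca* was the highest at 86.7, 83.3 and 85.0 RPKM, or 85.0 ± 1.71 (SD, n = 3), and ranked 371 among 9007 protein-coding genes above 1 RPKM. *Sgcb* (35.6 ± 2.02) and *Dag1* (31.6 ± 4.47) followed with overlapping ranges, at ranks 845 and 946. *Sspn* had 14.5 ± 0.81 RPKM, apart from both neighbours. *Dtna* (6.60 ± 0.24) and *Dmd* (6.43 ± 0.98) could not be ordered, since their ranges overlapped. The lowest were *Sgcd* at 2.47 ± 0.12 and *Utrn* at 1.61 ± 0.28 RPKM, the latter at rank 7730, with ranges apart. Between replicates the coefficient of variation was 2.01% for *Sgca*, the steadiest, and 17.5% for *Utrn* and 15.2% for *Dmd*, which varied most. *Dmd* and *Utrn* were both highest in replicate 3, at 7.51 and 1.91 RPKM, where *Dag1* was lowest, at 26.4. Endothelial markers (*Pecam1*, *Cdh5*, *Kdr*) summed to 109 to 130 CPM in GAS, fibroblast markers to 299 to 390 and smooth muscle markers to 227 to 245, and their part in these levels was not tested.

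**Figure D4:**
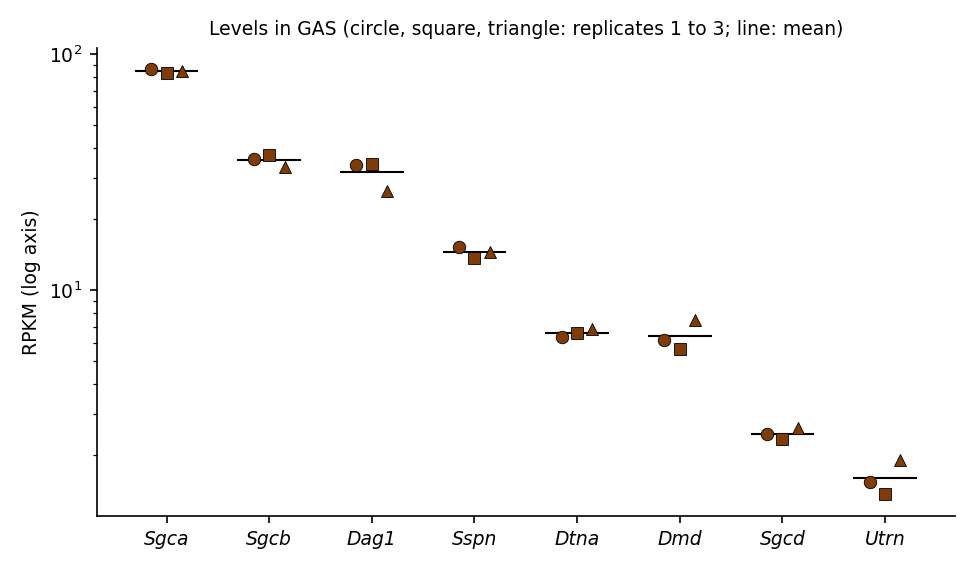
Level in RPKM (log axis) of each gene in the 3 GAS libraries, ordered by mean, with circles, squares and triangles for replicates 1, 2 and 3 and lines for the mean. The levels run from 85.0 RPKM for *Sgca* to 1.61 for *Utrn*, and the ranges of *Sgcb* and *Dag1*, and of *Dtna* and *Dmd*, overlap.

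The order depended on the length used for *Dtna*, whose annotated exons add up to 16.9 kb while its longest transcript has 6.29 kb. With the longest transcript of each gene, *Dtna* was at 17.7 RPKM, above *Sspn* at 16.0 and *Dmd* at 10.3, while *Sgca* stayed first and *Utrn* last at 2.22. The 250-base windows above and these lengths come from annotation, and which transcripts were read in these samples was not measured.

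The make-up of the 8 transcripts differed between the cultured cells and GAS, given here side by side because the protocols differ. Their summed level was 55.9 ± 12.8 RPKM (SD, n = 2) in MB, 221 ± 56.7 in MT and 184 ± 5.20 (n = 3) in GAS. *Dag1* took 47.1% ± 18.6 in MB, 45.7% ± 6.65 in MT and 17.2% ± 2.04 in GAS. It was the largest share in each cultured library but MB replicate 2, where *Sgcb* took 35.8% and *Dag1* 33.9%. *Sgca* took 8.50% ± 0.92 in MB, 14.6% ± 1.24 in MT and 46.3% ± 1.33 in GAS, with no overlap between the 3 groups. *Dmd* took 0.0169% and 0.204% in the MB libraries, 0.76% ± 0.33 in MT and 3.51% ± 0.62 in GAS, and *Utrn* 4.47% ± 1.78, 2.67% ± 0.52 and 0.88% ± 0.18. *Sspn* was at 11.2% ± 3.65, 16.8% ± 5.67 and 7.88% ± 0.42. In lactate-treated MB, *Dag1* took 41.7% ± 4.30 and *Sgca* 12.5% ± 9.65, and both overlapped control MB.

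**Figure D5:**
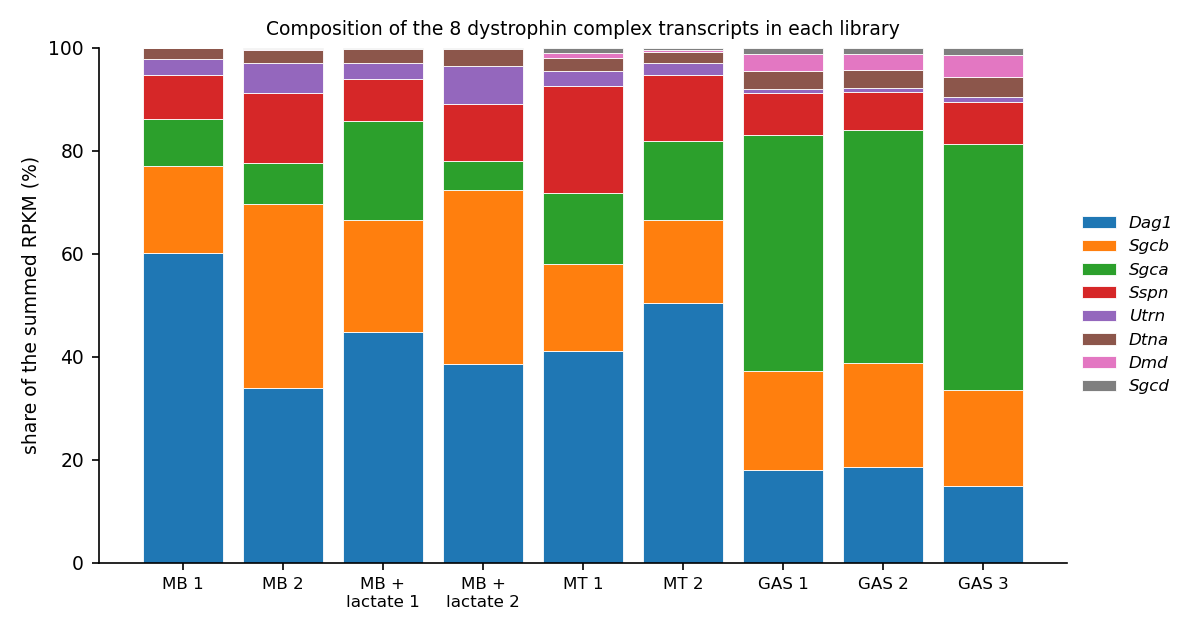
Share (%, y axis from 0) of each gene in the summed RPKM of the 8 genes, as stacked bars for each of the 9 libraries. *Dag1* is the largest block in each cultured library but MB replicate 2, and *Sgca* in the 3 GAS libraries, at a mean of 46.3%.

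As a description of pattern, genes were ranked by Pearson's r with *Dmd* of log2(CPM + 1) over the 6 cultured libraries, among 8643 protein-coding genes. The most alike were *Arl4a* (r = 0.999), *Lgalsl* (0.997), *Calcrl* (0.995), *Gzf1* (0.995) and *Lrrc57* (0.994). Of the members ranked, *Sspn* came nearest (r = 0.976, rank 119), then *Dtna* (0.960, rank 308) and *Sgcb* (0.929, rank 610). *Sgca*, *Utrn* and *Dag1* were at ranks 999, 1121 and 1295. *Sgcd* was not ranked, since its mean CPM over these libraries was below the minimum of 10. The 6 points share 2 MT libraries at the high end, so r mainly reflects that gap and how the 4 MB libraries fall below it.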

How the data were processed

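The authors trimmed the reads with Trim Galore 0.6.6, aligned them to mm10 with HISAT2 2.2.1 and counted them per gene with featureCounts of Subread 2.0.1, and the deposited values are raw counts. Annotation release, strand and multiple alignments are not given in the sources used here. Poly(A) RNA was used for GAS and Smart-seq2 for cultured cells, so GAS was not tested against them. Identifiers were named, and lengths taken, from GENCODE M21 (45229 of 46078 identifiers for cultured cells and 36429 of 38293 for GAS matched). TMM-normalized CPM, computed separately for GAS and cultured cells, were divided by exonic length for RPKM. MT against MB and lactate-treated against control MB were each fitted on 4 libraries with edgeR 4.0.16 (default filter on low counts, TMM, quasi-likelihood test, Benjamini-Hochberg adjustment), after tests on simulated data. Thresholds were an adjusted p below 0.05, or for lactate a nominal p below 0.01, with an absolute log2 fold change above 0.5. An exact permutation test of 2 against 2 libraries cannot give a p below 0.333. A limit of 3 counts corresponds to 0.277 to 0.577 CPM in cultured cells and covers counting error only. Alternatives were DESeq2 1.42.0, the likelihood ratio test, RLE size factors, other filters, samples and thresholds, the replicate number as a block, the longest transcript as length and each replicate left out. A block with crossed replicate numbers was chosen after seeing the data. Of 4 further lists (complex, glycosylation, ligands, partners), the genes that passed and any quoted are named, except some not reported here, with the 5 genes most like *Dmd* (mean CPM of at least 10). The members and lists were chosen with earlier results of these data known. Python 3.11.15 and R 4.3.3 were used.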

Additional observations from a re-analysis of the deposited data

How the results depend on the processing

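The number of members higher in MT stayed at 6 with RLE size factors, beside 11.0% of all genes as higher. It was also 6 with no filter on low counts (4.6% of all genes) and with all 6 cultured libraries in a single fit (9.97%). No minimum fold or a minimum log2 fold change of 1 left it at 6. DESeq2 gave 7 (5.13%) and the likelihood ratio test 8 (14.8%). When a replicate was left out, log2 fold changes of the members lay between 0.96 for *Utrn* and 7.02 for *Dmd*. With at least 10 counts in every library, *Dmd* and *Sgcd* were not tested and 5 of 6 members were called, beside 7.19% of all genes. No member's direction in MT against MB reversed. With the replicate number as a block, 5 members were called, beside 11.2% of all genes as higher, since *Dag1* had an adjusted p of 0.0527. The block over all 6 libraries called 7, beside 11.3% of all genes as higher, and *Sgcb* was added. Libraries with the same number deviated together with r = -0.13 across 12921 genes for MT and MB and 0.70 across 11804 genes for lactate-treated and control MB. With 2 pairs and no label on what a number shares, this is a hint and not a pairing. With crossed numbers as a block, 6 members were called, beside 9.23% of all genes as higher, and *Dtnb* and *Krt19* were not called. The block also ended the call of *Lamb2* (adjusted p = 0.0573), leaving 2 ligands. For lactate, the block gave 13 genes past the nominal threshold against 0 without it, and 0 members in both. At an unadjusted p below 0.05 (edgeR, quasi-likelihood) the block gave 166 genes, against 5 without it. The lowest blocked p of a tested member was 0.0552, for *Sspn*, at a log2 fold change of -0.67. For the other complex and glycosylation genes, 5 were called without and with the block, 2 with at least 10 counts in every library, where *Cav3* fell below the filter and *Dtnb* did not pass, and 4 to 7 when a replicate was left out.

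Over all genes, the number higher in MT was 1425, and it was 4118 without MT replicate 2, 962 without MT replicate 1 and 766 with at least 10 counts in every library. The number lower was 887, and it was 270 without MT replicate 1 and 1570 without MB replicate 2, and 1343 with the likelihood ratio test. For lactate, DESeq2 called 2 genes, no filter on low counts 1, all cultured libraries with the block 2, and leaving out a replicate 1 to 177, with 0 members in each. For *Dtna* the log2 fold change with lactate was 0.0078 with RLE size factors. When a replicate was left out, log2 fold changes with lactate ranged from -1.21 to 0.55 for *Utrn*, -1.15 to 0.0417 for *Dag1* and -0.81 to 0.40 for *Sgca*. They ranged from -0.98 to 0.21 for *Sgcb* and from -0.55 to 0.36 for *Dtna*. For these genes the direction depended on the library left out, whereas *Sspn* stayed below 0, from -1.20 to -0.18. The summed level in GAS was 210 RPKM and the share of *Sgca* 40.8% with the longest transcript as length, by the construction of that setting, and they were 181 to 187 RPKM and 45.6% to 46.9% when a replicate was left out. The 2 libraries a group limit precision most for *Dmd* and *Sgcd*, which had at most 20 counts in an MB library.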
